A study of Mus musculus with 5 samples.

Results

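The genes described here are named for the mitochondrial ribosome and for the machinery that imports proteins into mitochondria. They were taken by symbol: names starting with Mrpl (large ribosomal subunit), Mrps (small ribosomal subunit), Timm (translocase of the inner membrane) or Tomm (translocase of the outer membrane). A prefix need not give the true subunit or complex of a protein, which was not checked. Large and small subunit stand below for the prefixes. Of 8251 named genes on the array 78 were members, 40 Mrpl, 21 Mrps, 12 Timm and 5 Tomm. For a gene with several probe sets, the one with the highest 5-array mean was used. Of the 78, 75 passed the filter on low signal and were tested, and Mrpl14, Mrpl49 and Timm8a2 lay below it with signals between 3.16 and 11.8, 2.64 and 5.02, and 2.70 and 3.72. Tomm22 and Timm50 were not among the genes named here.

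RNA came from CD44lo CD8+ T cells of lymph nodes of C57BL/6 OT-1 TCR transgenic mice aged 6 to 8 weeks, whose T cells share 1 receptor, specific for an ovalbumin peptide. All cultures held human rIL-2 and microspheres carrying the peptide on H-2Kb together with B7-1, a ligand of CD28, so no antigen-presenting cell was added. Cells from cultures lacking IL-21 were harvested at 48 h (2 arrays). Cells from cultures with murine IL-21 were harvested at 48 h (2 arrays) or at 72 h (1 array). The titles call the samples biological replicates without saying whether mice or cultures were separate or pooled, so p-values measure only the spread between these samples. No 72 h group lacking IL-21 was used here, so effects of time and of IL-21 cannot be told apart at 72 h.

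Mitochondria translate a handful of respiratory chain subunits on ribosomes of their own, whose proteins are all encoded in the nucleus and imported. Import begins at the outer membrane complex TOM, with its receptors and the Tomm40 channel. From there small Timm proteins chaperone hydrophobic clients to the carrier translocase TIM22, and proteins with a presequence go through the TIM23 channel, pulled by an ATP-driven motor. Activated T cells expand their mitochondrial mass as they grow and divide.

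Values are array signals after quantile normalisation, which gives all arrays the same distribution, so every difference is relative to the bulk of probe sets. Before it, the deposited signals had trimmed means between 65.2 and 75.3 on 3 arrays, and of 105 and 105.5 on the pair from 48 h with IL-21. Of the 7 CD8 T cell markers measured, which included Cd8a, Cd8b1 and Cd3e, all passed the filter. Their summed signal was between 5006 and 5534 on the 48 h arrays and 7969 at 72 h. At 72 h Cd3d, Cd3g and Thy1 were called higher, and the others were not called. Of these others, Cd3e (log2 difference 0.54, SE 0.14) and Cd8b1 (0.12, SE 0.29) were higher. Cd8a (-0.51, SE 0.15) and Cd2 (-0.18, SE 0.22) were lower. Cd8a, a chain of CD8 itself, had 690 and 753 with IL-21 at 48 h and 506 at 72 h. Cd8b1, the other chain, had 989.5 and 1017 and then 1093. The 6 B cell markers measured summed to between 383 and 671 at 48 h and 979 at 72 h, of which Ighm alone made up 295 to 560 and 868. The 8 myeloid and dendritic cell markers summed to between 189 and 244 and to 286. Of the 10 of these that passed the filter, H2-Ab1 was the 1 called at 72 h, with signals of 60.2 and 58.1 with IL-21 at 48 h and 140 at 72 h. Of the 5 myeloid genes tested, Cd14, Csf1r and H2-Eb1 were lower, H2-Ab1 and Cd68 were higher, and the median was -0.61. Cd68 had 25.3 and 22.9 with IL-21 at 48 h and 55.4 at 72 h (1.20, SE 0.35). H2-Eb1 had 41.5 and 14.0 and then 14.1. The other markers summed to between 1.98 and 5.14 and to 10.2 for NK cells (Ncr1 alone), to between 9.39 and 15.9 and to 32.6 for CD4 cells (Cd4 alone), and to between 182 and 272 and to 259 for 3 erythroid and stromal genes. No marker was at 0, though Lyz2, a myeloid gene, stayed at or below 2.99 on all 5 arrays. The part of other cells in the results below was not tested.

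At 48 h, cultures with and without IL-21 were compared. No member of the 4 families was called: 0 of 75 passed at an adjusted p under 0.05 in limma, where 0% of all 7453 probe sets did. With no call on the whole array, this does not show that members were unchanged. An unadjusted p under 0.05 was reached by 3 members, all higher with IL-21, or 4% of them, where 2.55% of all probe sets reached it and were higher, 1.84% reached it and were lower, and 4.39% did either way. By sign 33 members were higher and 42 lower, and the median log2 difference was -0.04, beside -0.01 over all probe sets. It was -0.05 for Mrpl, -0.06 for Mrps, 0.08 for Timm and -0.07 for Tomm. The arrays of the groups did not overlap for 40 members (17 higher, 23 lower), or 53.3%, beside 33.8% of all probe sets, and none of the 75 was 2-fold apart in the group means, as 0.657% of all probe sets were toward lower and 0.993% toward higher signal.

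Among the 75 tested members the largest difference at 48 h was that of Timm22, the channel of the carrier translocase. Its signal was 41.7 and 40.1 without IL-21, and 57.1 and 87.1 with it, a log2 difference of 0.79 (SE 0.27). The arrays did not overlap, but those with IL-21 differed from each other by more than those without. Mrps18a, a ribosomal protein of the S18 family, had 185 and 127 without IL-21 and 289 and 202 with it (0.65, SE 0.26), and its other 3 probe sets differed by -0.28, 0.18 and -0.01. Mrps31, a small subunit protein with no bacterial counterpart, had 98.5 and 75.7 without IL-21 and 120 and 125 with it (0.50, SE 0.21). These were the 3 members with an unadjusted p under 0.05. Tomm20, the receptor for presequences, had 35.96 and 26.9 without IL-21 and 51.2 and 43.6 with it (0.60, SE 0.26). Its arrays did not overlap either. All 4 had an adjusted p of 0.967 in limma.

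Several ribosomal genes had lower signal with IL-21 without passing. Mrpl54 had 71.7 and 70.7 without IL-21 and 52.7 and 55.7 with it (-0.40, SE 0.19). Mrpl46 had 66.6 and 62.3 without and 48.7 and 51.0 with it (-0.37, SE 0.21), and Mrps11 129 and 124 without and 100 and 103 with it (-0.32, SE 0.17). In all 3 the arrays did not overlap, and each had an adjusted p of 0.967 in limma. Mrpl37 (0.34, SE 0.16) and Mrps10 (0.44, SE 0.21) lay on the other side with the same adjusted p. Without any scaling 11 of 75 members passed, beside 696 of 7453 probe sets. All calls on the array, members or not, were then higher with IL-21. The median of all probe sets was itself 0.57 higher.

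The second comparison asked how cells with IL-21 differed between 48 and 72 h. Members of all 4 families were called lower, and none was called higher. Fell and rose stand here for these calls. By sign 60 members were lower and 15 higher, or 80% lower, beside 50.7% of all probe sets. In limma 18 of 75 were called lower, or 24%, beside 7.12% of the 7453 probe sets called lower, and 0 were called higher, beside 4.04%. The calls were 8 of 38 Mrpl, 4 of 21 Mrps, 4 of 11 Timm and 2 of 5 Tomm genes. The median log2 difference was -0.39, beside -0.01 over all probe sets, with -0.28 for Mrpl, -0.42 for Mrps, -0.71 for Timm and -0.45 for Tomm. Differences between the families were not tested. At least 2-fold lower were 15 members, beside 8.51% of all probe sets, and 0 were 2-fold higher, beside 7.1%. An unadjusted p under 0.05 was reached by 26 members, all lower, or 34.7%, beside 15.6% of all probe sets lower and 11.6% higher, 27.3% in all.

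The comparison rests on 1 array at 72 h, which has no replicate check, and the test assumed that it varies like the 48 h groups. No member, and no probe set of the array, was called without the trend of variance on signal. There 28 of 75 members had an unadjusted p under 0.05 in limma, beside 1843 of 7453 probe sets. Again no member and no probe set was called when either 48 h array with IL-21 was left out. With either 48 h array lacking IL-21 left out, Mrpl16, Mrpl18, Mrpl35, Mrpl37, Mrpl41, Mrpl50, Mrps28, Mrps31 and Tomm70a were not called. The scaling moved the count from 51 in the unscaled signals (beside 27.2% of all probe sets called lower) to 7 after scaling on the bacterial and phage control transcripts (beside 3.19%), with 0 called higher in both. Among smaller losses, Mrpl18 and Mrpl37 were not called with arrays centred on medians, nor Mrpl37, Mrps31 and Tomm70a with cyclic loess or with no filter. The share of calls over all probe sets that was higher was 36.2%, and 4.75%, 18.1% and 73.7% in the unscaled signals, with arrays centred on medians and with the control transcripts. In these 3 scalings, which differ by 1 constant per array, the overall median came to -0.58, -0.17 and 0.33. In the bulk RNA measured here, fewer cells of a type and less RNA per cell cannot be told apart.

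Set against each gene's mean over the 4 arrays at 48 h, the median of the 75 members lay between -0.02 and 0.04 on the 48 h arrays and was -0.43 at 72 h. The 72 h array was lower than all 4 arrays at 48 h for 51 members, or 68%, beside 33.8% of all probe sets. It was higher than all 4 for 9, or 12%, beside 30.4%. Together 60 members, or 80%, lay outside the 48 h range, beside 64.2%, and the remaining 15 within it. In the plot of single arrays the Timm genes at 72 h spread from above the 48 h mean to more than 4-fold below it.

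**Figure D1:**
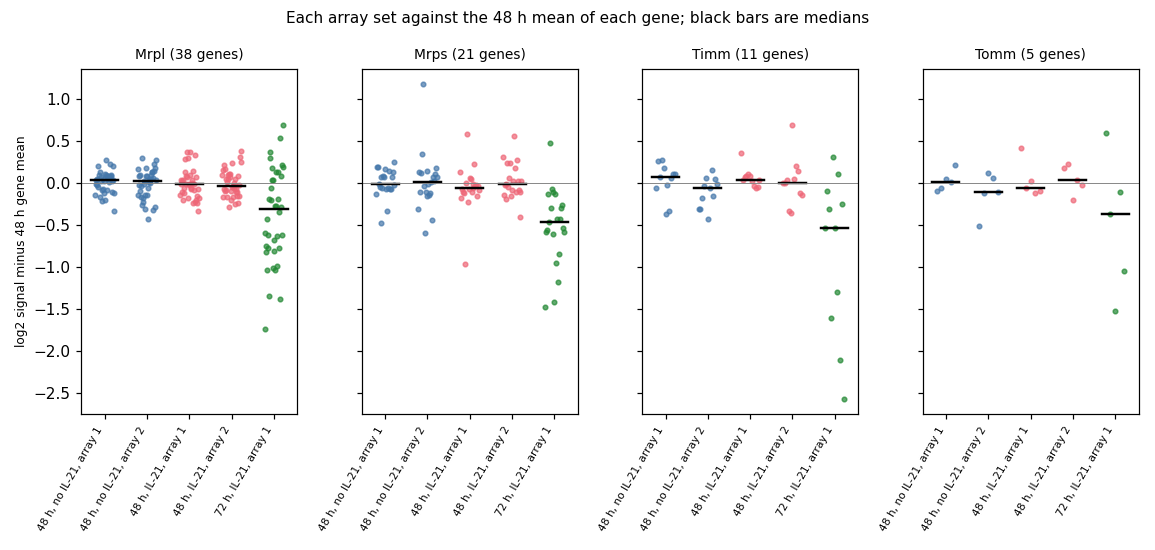
Log2 signal of each tested gene on each of the 5 arrays minus that gene's mean over the 4 arrays at 48 h, by family (38 Mrpl, 21 Mrps, 11 Timm and 5 Tomm genes). Points are genes, coloured by group, and black bars are medians, which at 72 h lie at -0.31, -0.46, -0.53 and -0.36.

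**Figure D2:**
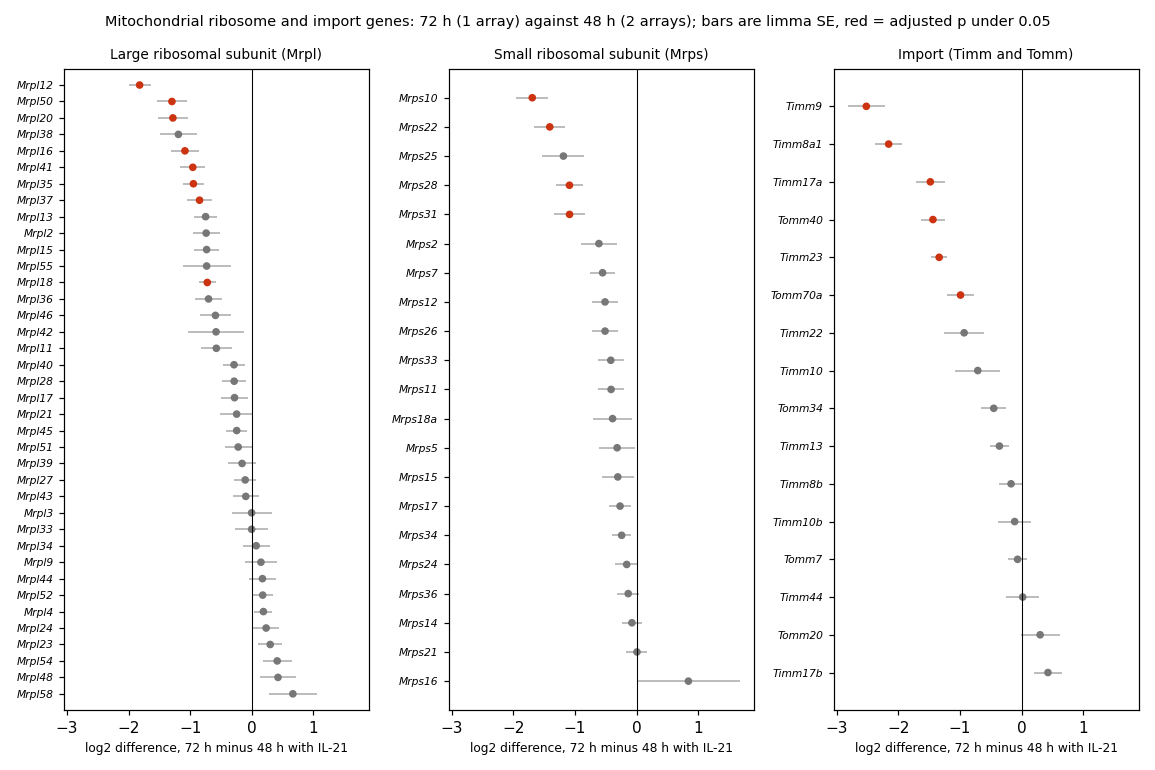
Log2 difference between 72 h (1 array) and 48 h (2 arrays) with IL-21 for the 75 tested genes, ordered within the Mrpl, Mrps and import (Timm and Tomm) panels, with bars for the limma SE. The 18 red points passed at an adjusted p under 0.05, and all of them lie left of 0.

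The sequence before the start is shown for 5 members called lower. They were picked by hand, each with a motif to mark, and do not represent the called members. Shared regulation was not tested. RefSeq promoters of 250 bases before to 50 after a start (GRCm38.p6) were held for 70 of the 78 members, 78 promoters in all. They were searched on both strands for exact matches to CACGTG, the E-box that MYC with MAX and other factors bind, CCGGAAG (ETS factors, among them GABP), the palindromic NRF1 motif, CCAAT (NF-Y) and GGGCGG (Sp1). No motif contains another. The windows below end at the base before the start, read 5′ to 3′ on the strand of the gene, and have the named motif, on either strand, in capitals. They are Mrpl20 (chr4:155802788-155802877, plus strand, E-box), Mrps22 (chr9:98601680-98601769, minus, ETS), Timm23 (chr14:32201892-32201981, minus, ETS), Tomm70a (chr16:57121624-57121713, plus, ETS) and Tomm40 (chr7:19715430-19715659, minus, CCAAT).
Mrpl20: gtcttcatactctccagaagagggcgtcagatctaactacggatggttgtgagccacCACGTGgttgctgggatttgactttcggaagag
Mrps22: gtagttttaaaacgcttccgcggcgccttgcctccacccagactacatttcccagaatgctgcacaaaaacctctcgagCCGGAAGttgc
Timm23: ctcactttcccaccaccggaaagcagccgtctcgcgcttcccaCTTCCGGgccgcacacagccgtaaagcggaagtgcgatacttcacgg
Tomm70a: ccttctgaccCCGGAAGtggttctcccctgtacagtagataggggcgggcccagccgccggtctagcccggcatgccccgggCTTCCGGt
Tomm40: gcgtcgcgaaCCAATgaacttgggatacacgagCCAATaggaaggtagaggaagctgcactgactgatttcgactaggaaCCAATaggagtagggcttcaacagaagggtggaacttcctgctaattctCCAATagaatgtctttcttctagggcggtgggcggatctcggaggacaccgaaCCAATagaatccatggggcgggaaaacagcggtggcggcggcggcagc

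The ETS motif was in 27 of the 78 promoters, or 34.6%, beside 18.4% of 5852 promoters of genes that passed the array's filter and 8.86% of all 32851. The E-box was in 10, or 12.8%, beside 10.3% and 7.15%. NRF1 was in 2, or 2.56%, beside 2.17% and 0.971%, CCAAT in 30, or 38.5%, beside 37.5% and 37.4%, and Sp1 in 41, or 52.6%, beside 62.2% and 35.7%. Among the 17 members called lower that had a promoter, 4 held the ETS motif and 4 the E-box (Mrpl20, Mrpl37, Timm8a1 and Timm9). Among 58 promoters of the members that were tested and not called, 22 held the ETS motif and 6 the E-box. CCAAT was in 9 of the 17 and in 21 of the 58, and the Tomm40 window holds 5 copies. Mrpl12, Mrpl16 and Mrpl35, all called lower, held none of the motifs searched. Some genes have several starts whose promoters overlap, as the 3 of Mrpl2 do, so promoters of 1 gene are not independent. These matches describe letters in the windows, and no binding was measured.

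At the outer membrane the genes of the channel and of 1 receptor fell. Tomm40, which forms the channel of the TOM complex, had signals of 247 and 259 without IL-21, 242 and 207 with it at 48 h, and 82.5 at 72 h. It fell 2.71-fold (-1.44 on the log2 scale, SE 0.20, adjusted p = 0.0149 in limma). Tomm70a, a receptor for carrier proteins that docks cytosolic chaperones, had 212 and 169 without IL-21, 170 and 179 with it, and 87.9 at 72 h (-0.99, SE 0.22, adjusted p = 0.0437 in limma). The 72 h array was the lowest of the 5 for both. The other probe set of Tomm70a differed by -0.85 and did not pass. The main one carries the suffix the array's maker gives to probe sets that can match several similar sequences, as does that of Mrpl18 below.

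The remaining outer membrane genes did not pass. Tomm20 had 51.2 and 43.6 with IL-21 at 48 h and 58.3 at 72 h, the highest of the 5 arrays (0.30, SE 0.31). Tomm34, a cytosolic co-chaperone of precursors, had 223 and 271 and then 180 (-0.45, SE 0.20), and Tomm7, a small subunit of the complex, 591 and 662 and then 599 (-0.06, SE 0.15). Their adjusted p lay between 0.220 and 0.834 in limma.

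Of the small Timm proteins, which ferry hydrophobic precursors across the intermembrane space as complexes of Timm9 with Timm10 and of Timm8 with Timm13, one of each pair fell. Timm9 had signals of 50.2 and 46.0 without IL-21, 47.6 and 42.3 with it at 48 h, and 7.83 at 72 h. It fell by 2.52 on the log2 scale (SE 0.30, adjusted p = 0.0117 in limma). It ended at a low signal, below the 13.0 at which the filter on mean signal lies, and the size of the fall moved with the offset added before log2, from 5.73-fold to 2.67-fold with an offset of 16. Timm8a1 had 173 and 149 without IL-21, 159 and 183 with it, and 38.3 at 72 h, a fall of 4.46-fold (-2.16, SE 0.22, adjusted p = 0.00928 in limma). On the 4 arrays at 48 h both genes stayed within a narrow range that the 72 h array left.

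Their partners did not pass. Timm10 had 36.3 and 28.4 with IL-21 at 48 h and 19.6 at 72 h (-0.71, SE 0.36), and Timm13 803 and 783 and then 618 (-0.36, SE 0.16). For both the 72 h array was the lowest of the 5. Timm8b, the paralogue of Timm8a1, had 169 and 161 and then 146 (-0.17, SE 0.19), and Timm10b, a small subunit attached to TIM22, differed by -0.11 (SE 0.27). Adjusted p lay between 0.216 and 0.836 in limma, and the difference between each gene and its partner or paralogue was not tested.

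At the inner membrane Timm23 and Timm17a, genes of the channel of the presequence translocase, fell. Timm23, the pore of that channel, had 924 and 908 without IL-21, 955 and 976 with it at 48 h, and 382 at 72 h, a fall of 2.53-fold (-1.34, SE 0.13, adjusted p = 0.00928 in limma). The 4 arrays at 48 h lay within 908 and 976. Timm17a, the other channel subunit, had 651 and 524 without IL-21, 569 and 425 with it, and 176 at 72 h (-1.48, SE 0.24, adjusted p = 0.0202 in limma). Timm17b, which takes the place of Timm17a in a second form of the channel, had 463 and 337 with IL-21 and 531 at 72 h, the highest of the 5 arrays (0.43, SE 0.22, adjusted p = 0.283 in limma).

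Timm44, which tethers the import motor to the channel, had 174 and 204 with IL-21 at 48 h and 191 at 72 h (0.02, SE 0.27). Timm22 had 57.1 and 87.1 and then 37.0, the lowest of the 5 arrays (-0.93, SE 0.33, adjusted p = 0.135 in limma). Among the 16 import genes tested, 13 had a negative difference, and the median was -0.58.

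Among genes of the large ribosomal subunit, the fall was largest for Mrpl12, whose protein forms the stalk that recruits translation factors. Its signal was 418 and 383 without IL-21, 421 and 473 with it at 48 h, and 126 at 72 h, a fall of 3.54-fold (-1.82, SE 0.18, adjusted p = 0.00928 in limma). Mrpl50, which has no bacterial counterpart, had 113 and 110 without IL-21, 111 and 89.9 with it, and 40.7 at 72 h (-1.30, SE 0.24). Its second probe set above the filter differed by -1.09 and did not pass. Mrpl20 had 203 and 280 without IL-21, 219 and 216 with it, and 89.6 at 72 h (-1.28, SE 0.25). For these 3 the 72 h array was less than 0.5 times the lowest 48 h array.

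The other 5 large subunit genes that fell did so by smaller amounts. Mrpl16 had 156 and 196 with IL-21 at 48 h and 82.2 at 72 h (-1.09, SE 0.23), and Mrpl41 143 and 137 and then 72.0 (-0.96, SE 0.20). Mrpl35 had 368 and 350 and then 186 (-0.95, SE 0.16), and Mrpl37 193 and 213 and then 112 (-0.85, SE 0.20). Mrpl18, whose bacterial counterpart binds 5S rRNA, had 1196 and 1303 and then 756 (-0.72, SE 0.14). A second Mrpl18 probe set, at 401 and 460 and then 251, fell as well (-0.77). For all 5 the 72 h array was the lowest of the 5 arrays, the arrays without IL-21 included. Adjusted p for these 5 genes, Mrpl20 and Mrpl50 lay between 0.0234 and 0.0465 in limma.

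The other 30 large subunit genes tested did not pass, with 20 negative and 10 positive differences. The largest positive one was that of Mrpl58, a peptidyl-tRNA hydrolase that rescues stalled ribosomes, with 62.0 and 101 with IL-21 at 48 h and 126 at 72 h (0.67, SE 0.39, adjusted p = 0.343 in limma). Mrpl54 had 52.7 and 55.7 and then 72.0 (0.41, SE 0.23), and Mrpl46 48.7 and 51.0 and then 33.1 (-0.59, SE 0.25). Mrpl58 was already at 94.0 on 1 array without IL-21 and 61.5 on the other.

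Among the Mrps genes 4 fell. Mrps10 had signals of 63.6 and 56.3 without IL-21, 76.2 and 86.4 with it at 48 h, and 25.1 at 72 h, a fall of 3.24-fold (-1.70, SE 0.26, adjusted p = 0.0176 in limma). Mrps22 had 113 and 90.01 without IL-21, 105 and 94.8 with it, and 37.5 at 72 h (-1.41, SE 0.25, adjusted p = 0.0246 in limma). Mrps28 had 136 and 123 without IL-21, 118 and 114 with it, and 54.3 at 72 h (-1.09, SE 0.21, adjusted p = 0.0300 in limma). For these 3 the 72 h array was the lowest of the 5. Mrps31, one of the 3 members with an unadjusted p under 0.05 at 48 h, had 120 and 125 with IL-21 and 57.5 at 72 h (-1.09, SE 0.25, adjusted p = 0.0468 in limma), against 75.7 on the lower array without IL-21.

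The other 17 Mrps genes did not pass, although 15 of them were lower at 72 h. Mrps12, a protein of the decoding centre, had 180 and 186 with IL-21 at 48 h and 128 at 72 h (-0.51, SE 0.21), and Mrps11 100 and 103 and then 76.1 (-0.42, SE 0.21). Mrps18a had 289 and 202 and then 184 (-0.39, SE 0.32), and its 3 other probe sets differed by -0.91, -0.24 and -0.99. Mrps16 had the largest positive difference of the tested members (0.84) with the largest SE (0.83), from signals of 7.98 and 18.4 to 21.7, all of them low. Its arrays without IL-21 read 11.2 and 35.2.

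**Figure D3:**
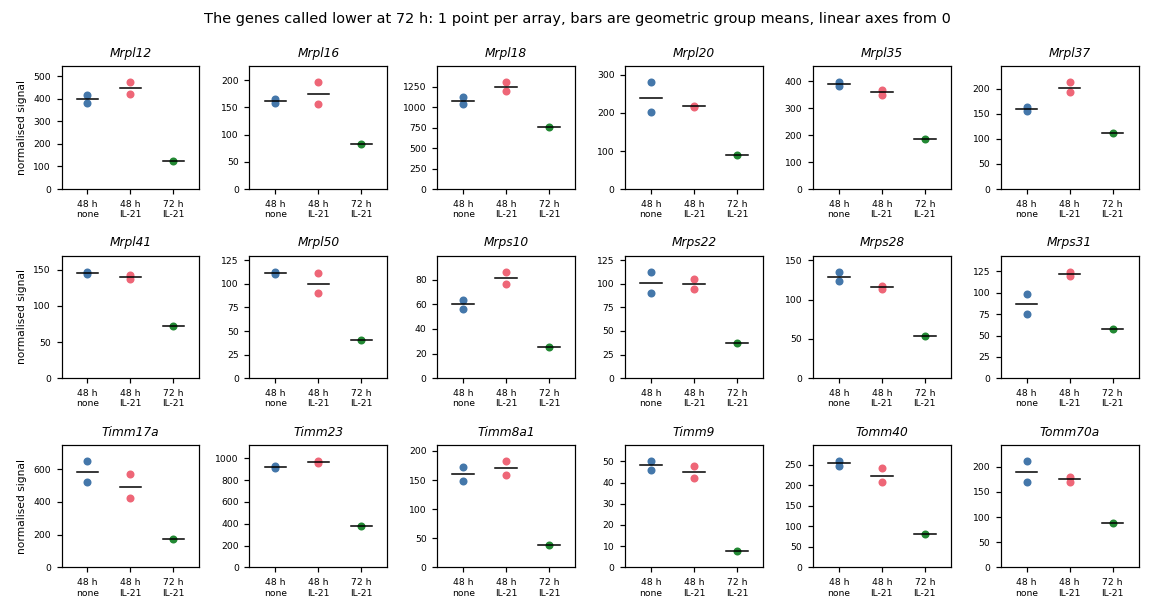
Normalised signal of the 18 genes called lower at 72 h, with 1 point per array (48 h lacking IL-21 and 48 h with IL-21, 2 arrays each, and 72 h with IL-21, 1 array) and bars for the geometric group means. Axes are linear from 0, and in all 18 the 72 h point lies below the 4 points at 48 h.

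Over the 18 genes that fell, the 48 h level with IL-21 ran from 44.9 to 1250 with a median of 175, and that of the 57 that did not pass from 12.1 to 793 with a median of 158. Falls ranged from 1.65-fold to 5.73-fold (Timm9), with a median of 2.45, and with an offset of 16 from 1.64-fold to 3.5-fold (Timm8a1), with a median of 2.13. The 18 genes lie on 15 chromosomes. At 48 h, 8 of the 18 had been higher with IL-21 and 10 lower. Both comparisons share the 48 h arrays with IL-21. Of 14 members with more than 1 probe set, the 17 other probe sets had the sign of the main one at 72 h in 13 cases, and in 10 of the 10 that were above the filter.

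The ribosomal members were also split by the number in their symbol, at L36 and S21, where the bacterial numbering was taken to end. The split used the number alone and homology was not checked. A higher number thus need not mark a protein without a bacterial counterpart. Of 33 tested genes with a bacterial number 6 fell, with a median of -0.32, and of 26 with a higher number 6 fell, with a median of -0.36. Among the Mrps genes 1 of 12 with a bacterial number fell (median -0.35) and 3 of 9 with a higher one (median -0.51). The members that fell thus lay on both sides of this split, and the difference between the sides was not tested.

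Other genes of mitochondrial translation and import fell at 72 h as well, and their counts stand beside 7.12% of all probe sets called lower and 50.7% with a negative difference. Of 5 translation factors tested 3 fell and 0 rose, and all 5 had a negative difference (median -0.97). Lrpprc, which stabilises mitochondrial mRNAs, had 210 and 226 with IL-21 at 48 h and 51.3 at 72 h (-2.09, SE 0.20, adjusted p = 0.00928 in limma). Gfm1, an elongation factor of mitochondrial ribosomes, had 123 and 122 and then 45.1 (-1.44, SE 0.24). The third was Tsfm, another elongation factor, with 203 and 197 and then 102 (-0.97, SE 0.19). Of 2 ribosomal proteins with other symbols Ptcd3 fell, from 166 and 155 to 68.2 (-1.23, SE 0.20), and Dap3 did not pass, with 147 and 252 and then 202 (0.07, SE 0.33).

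Of 7 genes of mitochondrial transcription and rRNA maturation 1 fell, and all 7 had a negative difference (median -0.46). It was Mrm3, an rRNA methyltransferase, with 49.8 and 53.6 and then 16.5 (-1.65, SE 0.28, adjusted p = 0.0224 in limma). Mterf3 had 31.7 and 30.9 and then 14.1 (-1.15, SE 0.37, adjusted p = 0.104 in limma). Of 7 mitochondrial tRNA synthetases none passed in limma in either direction, and 4 were negative and 3 positive (median -0.11). Gars, whose product also serves the cytosol, differed by -1.06 (SE 0.30) and Rars2 by -0.99 (SE 0.27), both with an adjusted p of at least 0.0679 in limma.

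Of 13 genes of the import motor, sorting and processing 3 fell, 0 rose and 10 had a negative difference (median -0.34). Hspa9, the Hsp70 of the import motor, had 752 and 659 with IL-21 at 48 h and 296 at 72 h (-1.25, SE 0.16, adjusted p = 0.0135 in limma). Grpel2, a nucleotide exchange factor of that motor, had 50.9 and 49.9 and then 15.96 (-1.66, SE 0.29, adjusted p = 0.0234 in limma). The third was Mtx2, an outer membrane protein of the sorting machinery (-1.30), which is named because it completes the count. Of the 34 genes tested in these 5 lists 8 were called lower in limma, and 0 were called at 48 h.

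**Figure D4:**
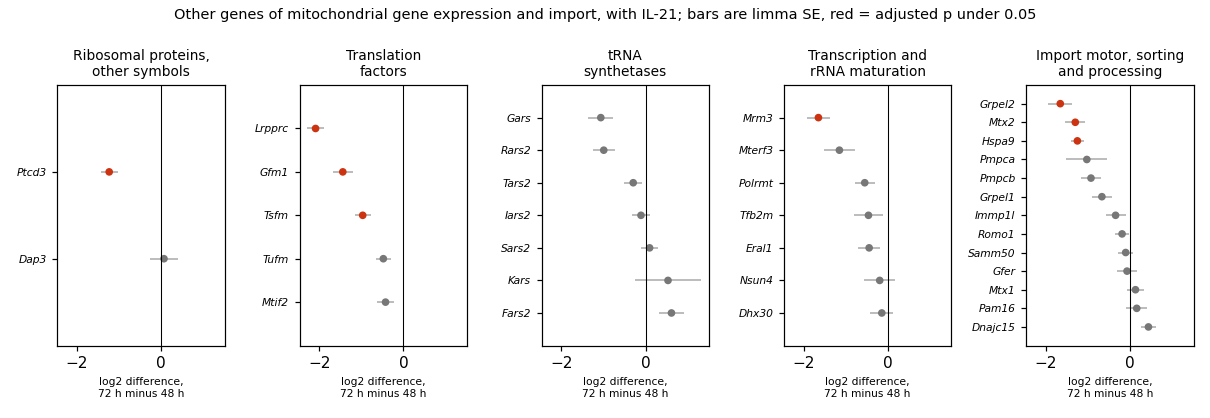
Log2 difference between 72 h (1 array) and 48 h (2 arrays) with IL-21 for the tested genes of 5 lists: ribosomal proteins with other symbols, translation factors, tRNA synthetases, transcription and rRNA maturation, and import motor, sorting and processing. Bars are the limma SE, and the 8 red points, all left of 0, passed at an adjusted p under 0.05.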

How the data were processed

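Signals of 5 arrays were deposited as MAS5 intensity values on a linear scale, per the submitters' processing notes. The sources used here do not give the MAS5 version, the scaling target or detection calls. Array columns differed in overall level, so the authors' values were not on a common scale. To each signal 1.53, the 10th percentile over all arrays, was added before log2 was taken and arrays quantile-normalised. Probe sets above the 40th percentile of mean log2 signal were kept (7453 of 12422). Names came from a platform annotation table, updated by Entrez identifier to GRCm38.p6 symbols (10817 of 10833 singly named probe sets matched). limma 3.58.1 in R 4.3.3 fitted 3 group means (2 residual degrees of freedom) with a variance trend, two-sided, Benjamini-Hochberg over 7453 probe sets at 0.05. The fit was tried on simulated data with independent noise, of the same spread on all 5 arrays for each probe set. That trial could not check the assumption that the 72 h array varies like the 48 h groups. Precision is limited by the number of arrays.

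The members, lists and promoter motifs were chosen with earlier results of these data known. Named were, per family and comparison, the 4 smallest p, every member that passed, the largest positive difference at 72 h, 15 fixed members (13 of them measured) and 2 genes per list by p. Tomm7, Timm10b and genes that complete a count, were named after their values were seen. Alternatives were the offset, scaling, filter, variance trend, replicate block, choice of probe set and leaving out each array.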

Additional observations from a re-analysis of the deposited data

How the results depend on the processing

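All 18 members called lower at 72 h had a negative difference in every alternative that tested them, but none stayed called in all: Mrpl37 was called in 6 of 15, Mrps31 and Tomm70a in 7, Mrpl18 in 8, and the most stable in 12. At 72 h the median of the members was -1.04 in the unscaled signals, -0.63 with arrays centred on medians, -0.13 with the control transcripts, -0.35 with cyclic loess or an offset of 16, -0.34 with the filter at the 60th percentile and -0.42 with gene means. Minus the overall median it lay between -0.45 and -0.31, the first 3 being equal by construction. Calls were 51 of 75 members and 2128 probe sets in the unscaled signals, 7 members with the control transcripts, and 0 members and 0 probe sets without the variance trend. In the control scaling the 72 h array lay outside the 48 h range for 37 members, or 49.3%, beside 50.2% of all probe sets. Leaving out each 48 h array gave 0 to 9 members, 0 to 465 probe sets and medians from -0.39 to -0.37. With 1 array left out, fewer degrees of freedom remain. The 72 h array could not be left out.

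At 48 h the unscaled signals gave 696 probe sets, 11 members, a median of 0.53 and 70 members without overlap, or 93.3%, beside 74.6% of all probe sets. Arrays centred on medians gave a median of -0.003 and 25 such members, or 33.3%, beside 28.7%, and the control transcripts 44 probe sets and a median of -0.47. Leaving out each array gave medians from -0.0461 to -0.0049.

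The replicate numbers are shared by the 48 h groups, but no label ties them to a day or mouse. Deviations of same-numbered arrays correlated across genes (r = 0.361 over 7453 probe sets, 0.615 over the 75 members). With the replicate block 11 probe sets passed at 48 h, none of them a member, and 1860 at 72 h. There 26 of the 75 members passed. Of these 25 were lower, the 18 among them, beside 13.4% of all probe sets called lower. Mrpl58 was higher (1.00), beside 860 probe sets called higher. The median of the members was -0.43, beside -0.04 over all probe sets.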
